A study of Homo sapiens with 18 samples.

Results

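NF-kappaB is a family of dimeric transcription factors that drives inflammatory genes, and the genes described here are 4 of its subunits and 6 of its target genes. The 10 genes were taken by Ensembl ID from the 60666 gene IDs of the deposited tables. They are NFKB1 (ENSG00000109320), NFKB2 (ENSG00000077150), RELA (ENSG00000173039), RELB (ENSG00000104856), NFKBIA (ENSG00000100906), TNFAIP3 (ENSG00000118503), IL6 (ENSG00000136244), CXCL8 (ENSG00000169429), CCL2 (ENSG00000108691) and BIRC3 (ENSG00000023445). They were listed because ADAR3, a brain-enriched RNA-binding protein of the ADAR family with no known deaminase activity, has been linked to NF-kappaB signalling in glioblastoma cells. The list itself was made with earlier results of these data known.

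The cells were U373-MG, an established human glioblastoma line. All of them had been transduced with a retrovirus that carried antibiotic resistance and either nothing else (control), a FLAG-tagged ADAR3 of wild-type sequence (ADAR3 WT) or the tagged protein with a mutated R-domain (ADAR3 R-Mutant), and all were grown in G418. The tagged ADAR3 came from the vector, and what the cells made from their own ADAR3 gene was not analysed here. RNA from UV-crosslinked cells was sequenced before (input) and after FLAG immunoprecipitation (IP), which gave 3 libraries for each of 6 groups. The study addressed what the R-domain adds to the contact of ADAR3 with RNA. Whether the 3 libraries of a group are separate cultures is not stated, and the spread behind every p-value may therefore be technical.

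At rest, NF-kappaB dimers are held in the cytoplasm by inhibitors of the IkappaB family, of which the product of NFKBIA is the best known. A signal from a cytokine or a sensor of infection leads to loss of the inhibitor, and the dimers enter the nucleus and bind kappaB sites in promoters. NFKBIA and TNFAIP3 are among the genes they switch on, and the products of both shut the pathway down again, while IL6, CXCL8 and CCL2 encode secreted signals that glioblastoma and astrocyte lines are known to make.

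Sequences are shown for the genes whose promoter window holds the letters of a kappaB site. Windows of 250 bases before to 50 bases after a gene's start, from RefSeq (GRCh38.p14), were found by symbol for 8 of the 10 genes, and RELB and CCL2 had none in that table. The kappaB consensus of 10 bases, GGGRNWYYCC, was searched on both strands (R is A or G, N any base, W A or T, Y C or T). It had a match in 6 of the 8 genes. Over all genes of the table, 7.09% had one. The match nearest to a start in each of the 6 genes is shown in capitals within 30 bases of the gene's own strand. In TNFAIP3 the 30 bases shown hold 2 matches, and the matches shown for NFKBIA, TNFAIP3 and BIRC3 read on the opposite strand. The windows lie at chr4:102501300-102501329 (NFKB1, gene strand +), chr10:102395674-102395703 (NFKB2, +), chr14:35404811-35404840 (NFKBIA, -), chr6:137867188-137867217 (TNFAIP3, +), chr11:102317339-102317368 (BIRC3, +) and chr7:22727117-22727146 (IL6, +).
NFKB1: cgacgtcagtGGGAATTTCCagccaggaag
NFKB2: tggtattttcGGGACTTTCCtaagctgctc
NFKBIA: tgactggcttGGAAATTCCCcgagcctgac
TNFAIP3: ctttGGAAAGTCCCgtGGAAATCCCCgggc
BIRC3: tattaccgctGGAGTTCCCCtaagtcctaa
IL6: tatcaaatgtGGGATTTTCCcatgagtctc

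The nearest matches begin 49 bases before the start in NFKB1, 21 in NFKB2, 81 in NFKBIA, 135 in BIRC3 and 73 in IL6. Further matches, not shown, begin 199 bases before the start in BIRC3 and 176 before the same start in NFKB2. NFKB2 also has matches at another of its starts. The pair in TNFAIP3 spans positions -67 to -46 from the start. RELA and CXCL8 had no match in their windows, which says only that strings of this pattern are not there. A site that departs from the pattern would be missed. A match is a string of letters and not a measured binding site.

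Against the control, FLAG IP with ADAR3 recovered several of these RNAs less, CCL2, NFKBIA, IL6 and NFKB2 among them, and none was called higher over all genes tested. Enrichment is read here as the IP signal of an RNA relative to its input signal, which no label states. On that reading the log2 fold changes, given with their standard errors, compare it between genotypes. A gene was called at a Benjamini-Hochberg adjusted p under 0.05 over all genes tested, in a two-sided normal test of each fold change against its standard error. With ADAR3 WT, 5 of the 10 genes were called lower and 0 higher, and over the 21121 genes tested 8.14% were called lower, 5.99% higher and 14.1% in either direction. With R-Mutant, 4 of the 10 were called lower and 0 higher, against 7.95% lower, 5.38% higher and 13.3% in either direction over 21120 genes. Genes of higher mean count were called more often, and 22.9% and 22.0% of genes with a mean normalized count of at least 50 were called with ADAR3 WT and R-Mutant when adjusted over those genes alone. Of the 7 listed genes above that mean, 5 were called there in each comparison, 4 lower and RELB higher. The share of all genes above that mean that were called lower was not computed, so the 4 lower calls have no matched share beside them. The median log2 fold change of the 10 genes was -0.66 with ADAR3 WT and -0.75 with R-Mutant, beside 0.01 and 0.03 over all genes tested. Both comparisons use the same control libraries, so the second is no independent repeat of the first, and the values of each are given side by side.

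**Figure D1:**
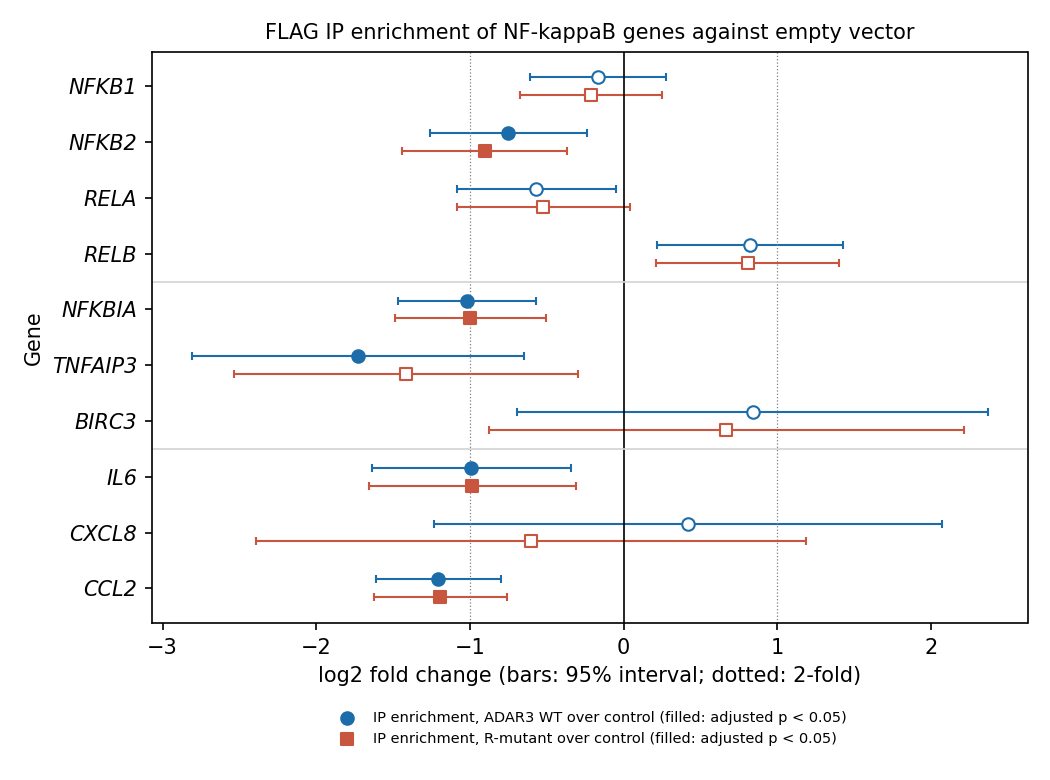
IP enrichment of the 10 genes (rows, grouped as subunits, feedback regulators, and cytokine and chemokine genes) as log2 fold change with 95% interval, for ADAR3 WT over control (circles) and R-Mutant over control (squares). Filled symbols are called genes, and all of them lie left of 0, with CCL2 at -1.21 and -1.19, while RELB sits at 0.82 and 0.81 with open symbols.

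Among the subunits, NFKB2 was lower and RELB had the opposite sign. NFKB2 encodes p100, the precursor of p52 and itself an inhibitor of RelB. Its log2 fold change in the authors' deposited tables was -0.75 ± 0.26 (standard error) with ADAR3 WT, a 1.68-fold lower enrichment (normal test adjusted p 0.0323). With R-Mutant it was -0.90 ± 0.27 (normal test adjusted p 0.0119). The call with ADAR3 WT is lost when low-count genes are not filtered out (adjusted p 0.0568), and it holds without that filter with R-Mutant. NFKB1, which encodes p105, the precursor of p50, was not called, at -0.16 ± 0.23 and -0.21 ± 0.24 in the authors' deposited tables. Its 95% intervals, -0.61 to 0.28 and -0.68 to 0.25, exclude a 2-fold difference in either direction. The difference of NFKB1 from NFKB2 was 0.59 (95% interval -0.09 to 1.26) with ADAR3 WT and 0.69 (-0.02 to 1.40) with R-Mutant, with the errors of the 2 genes taken as independent. The 2 precursor RNAs therefore did not differ beyond that error.

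RELA encodes p65, the main activating subunit. Its fold changes in the authors' deposited tables were -0.57 ± 0.26 and -0.52 ± 0.29, which did not pass (normal test adjusted p 0.147 and 0.251). RELB encodes the subunit that pairs with p52. Its values in the authors' deposited tables, 0.82 ± 0.31 with ADAR3 WT and 0.81 ± 0.30 with R-Mutant, were above 0 by 1.77-fold and 1.75-fold and just missed the threshold (normal test adjusted p 0.0534 and 0.0559). When only genes with a mean of at least 50 were tested, RELB was called higher in both (normal test adjusted p 0.0368 and 0.0383). RELB was the only one of the 4 listed subunits with a value above 0 in these comparisons, and its difference from the other subunits was not tested.

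Among the feedback regulators, NFKBIA was called lower in both comparisons. NFKBIA encodes IkappaB-alpha, which binds the dimers and keeps them out of the nucleus. Its fold change in the authors' deposited tables was -1.02 ± 0.23 with ADAR3 WT, a 2.03-fold lower enrichment with a mean normalized count of 1293 (normal test adjusted p 0.000239). With R-Mutant it was -0.996 ± 0.25 (normal test adjusted p 0.00136). Of all genes tested, 9.78% and 11.0% had a lower fold change than NFKBIA. TNFAIP3 encodes A20, a ubiquitin-editing enzyme that stops signalling above the kinase step. It had the lowest point estimate of the 10 genes in both comparisons, but a mean normalized count of only 47.8 and 45.7. With ADAR3 WT its fold change in the authors' deposited table was -1.73 ± 0.55, with a 95% interval of -2.81 to -0.65 (normal test adjusted p 0.0170). With R-Mutant it was -1.42 ± 0.57 in the authors' deposited table and did not pass (normal test adjusted p 0.0811). The intervals of NFKBIA and TNFAIP3 overlap, and the direct comparison of the genotypes made no call for TNFAIP3 (0.30 ± 0.46 for R-Mutant over wild type). BIRC3 encodes cIAP2, a ubiquitin ligase of the TNF receptor complex. Its values in the authors' deposited tables were 0.84 ± 0.78 and 0.67 ± 0.79 at a mean of 31.0 and 29.5, which did not pass (normal test adjusted p 0.564 and 0.666). At that error an absolute log2 fold change of 2.10 would have been needed for a call with ADAR3 WT, so a BIRC3 estimate below 4.30-fold could not be called.

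Among the secreted signals, CCL2 and IL6 were called lower in both comparisons. CCL2 encodes the chemokine MCP-1, which attracts monocytes, and its RNA had by far the highest mean normalized count of the 10 genes, 6241 in the comparison of ADAR3 WT. Its log2 fold change in the authors' deposited tables was -1.21 ± 0.21, a 2.31-fold lower enrichment (normal test adjusted p 4.98e-07), and -1.19 ± 0.22 with R-Mutant (normal test adjusted p 3.89e-06). The 95% interval with ADAR3 WT runs from 0.327 to 0.575 of the control's IP over input. CCL2 was the only one of the 10 genes called in both comparisons after a Bonferroni adjustment (adjusted p 0.000138 and 0.00123). IL6 encodes a cytokine that acts through STAT3. Its values in the authors' deposited tables were -0.99 ± 0.33, a 1.99-fold lower enrichment (normal test adjusted p 0.0241), and -0.98 ± 0.34 (normal test adjusted p 0.0348). Without the filter on low counts the call of IL6 with R-Mutant is lost (adjusted p 0.0611). CCL2 and IL6 did not differ from each other beyond their error, with a difference of -0.22 (95% interval -0.98 to 0.55) with ADAR3 WT.

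CXCL8, which encodes the neutrophil chemokine IL-8, gave values too imprecise to place. Its fold change in the authors' deposited tables was 0.42 ± 0.84 with ADAR3 WT and -0.60 ± 0.91 with R-Mutant, with a mean normalized count of 21.8 and 19.0 (normal test adjusted p 0.823 and 0.751). The 95% intervals, -1.23 to 2.07 and -2.39 to 1.19, include the value of CCL2 as well as a 2-fold rise. A log2 fold change of 2.27 or more would have been needed for a call with ADAR3 WT.

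**Figure D2:**
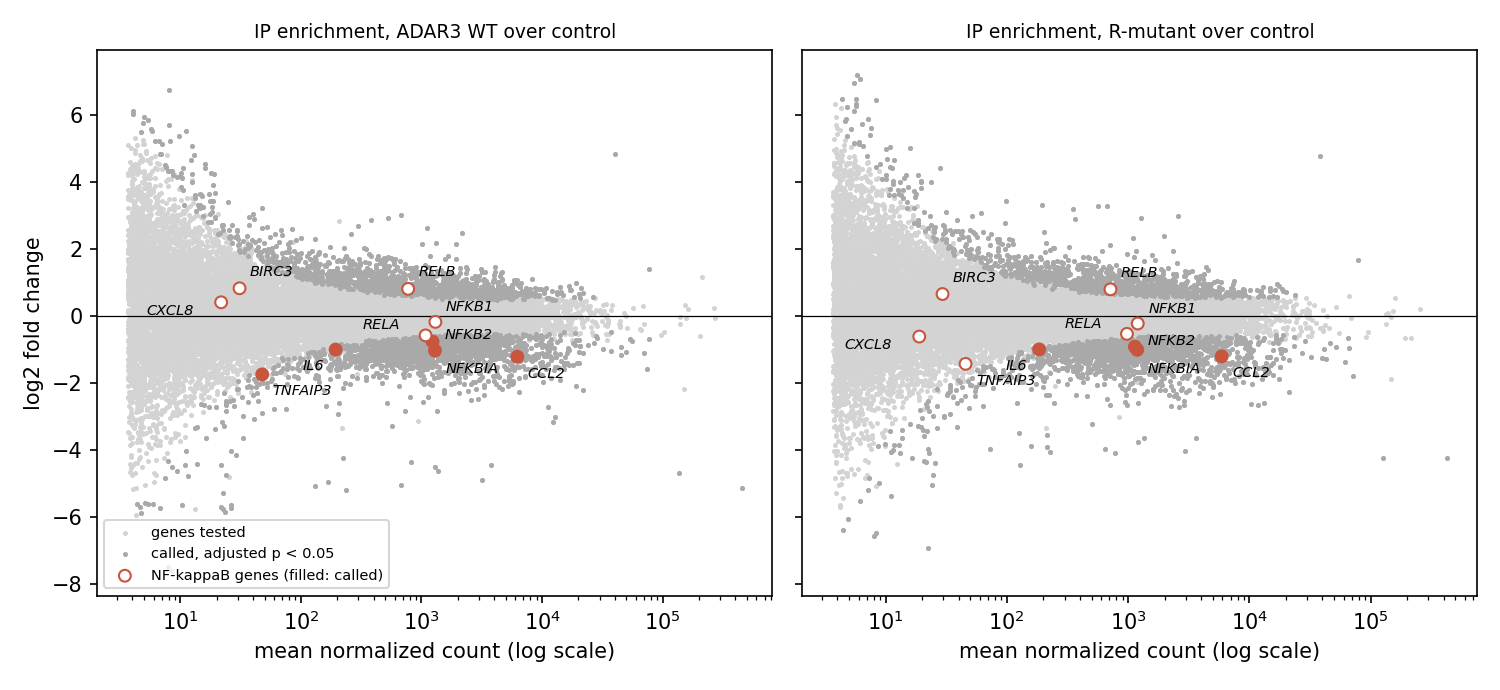
IP enrichment (log2 fold change) against mean normalized count (log axis) for all genes tested (light grey), called genes (dark grey) and the 10 NF-kappaB genes (orange, filled where called), with ADAR3 WT over control on the left and R-Mutant over control on the right. CXCL8, BIRC3 and TNFAIP3 lie at means under 50, where the fold changes of all genes scatter widely, and CCL2 lies at the high-count end among the called lower genes.

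The lower recovery is relative. Counts were normalized between libraries, so lower enrichment of these RNAs means less IP signal per input than other RNAs have, with the control IP as reference. It does not show how much of any RNA was bound. Total counts per library are not known here. The mean normalized count is pooled over libraries. With the standard error it shows how well a gene was measured, and not the depth of any library.

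The direct comparison of the mutant with the wild-type protein asks whether the IP enrichment of these RNAs differed between the 2 proteins. With none of the 10 genes called above control over all genes tested, it cannot show whether binding depends on the R-domain. None of the 10 genes was called between R-Mutant and ADAR3 WT by the normal test, nor had any an unadjusted p under 0.05. Of 23385 genes tested, 0.00428% were called, which is 1 gene, and 146 had an unadjusted p under 0.05. That is below the share of 0.05 that would fall there with no difference at all. The test was thus cautious here, and the lack of a low p in these 10 genes says little. The fold changes of the well-measured genes lay near 0 in the authors' deposited table. CCL2 was at -0.00077 ± 0.17, NFKBIA at 0.01 ± 0.21 and IL6 at -0.01 ± 0.28. RELB was at -0.03 ± 0.28, RELA at 0.03 ± 0.23, NFKB1 at -0.06 ± 0.20 and NFKB2 at -0.17 ± 0.23 in the same deposited table. For these 7 genes the 95% interval excluded a 2-fold difference in either direction, and for CCL2 it ran from 0.798-fold to 1.25-fold. TNFAIP3 (0.30 ± 0.46), BIRC3 (-0.20 ± 0.51) and CXCL8 (-1.03 ± 0.63) had wider intervals by the deposited standard errors of the authors, and for them it was not excluded. CXCL8 had the largest point estimate, with an interval of -2.26 to 0.20 (unadjusted p 0.101 and adjusted p 1.00, normal test). The median of the 10 genes was -0.02, the same as that of all genes tested.

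The adjusted p-value in the authors' deposited tables gives another count and was not used for calls. In the IP tables it belongs to a likelihood ratio test with 7 degrees of freedom, so it covers more terms than the fold change printed beside it. By that value 7 of the 10 genes passed for ADAR3 WT over control (43.0% of all genes tested did), 6 for R-Mutant over control (40.8%) and 8 for R-Mutant over ADAR3 WT (51.1%). CCL2 shows the gap most plainly. In the authors' deposited table its adjusted p between the genotypes was 1.99e-103, beside a log2 fold change of -0.00077.

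Input RNA shows whether the relative amounts of these RNAs differed between the cells with ADAR3 WT and the control cells. None of the 10 genes was called between ADAR3 WT input and control input by the normal test or by the adjusted p in the authors' deposited table. None had an unadjusted p under 0.05, and over the 20411 genes tested 0.289% were called and 595 had an unadjusted p under 0.05. Here too the 595 genes are below the share of 0.05 that would fall there with no difference at all. The subunits had input fold changes of 0.08 ± 0.22 (NFKB1), 0.01 ± 0.24 (NFKB2), -0.09 ± 0.24 (RELA) and 0.13 ± 0.27 (RELB) in the authors' deposited table. NFKBIA was at -0.08 ± 0.20, BIRC3 at 0.17 ± 0.38 and TNFAIP3 at 0.37 ± 0.31, the largest of the 10, with a 95% interval of -0.25 to 0.98 that includes 0. IL6 was at -0.12 ± 0.22, CXCL8 at 0.01 ± 0.43 and CCL2 at -0.04 ± 0.24 in that table. All 10 intervals excluded a 2-fold change of input RNA in either direction. TNFAIP3 came nearest to that limit. The 6 genes with a kappaB match ranged from -0.12 to 0.37. RELA and CXCL8, searched without a match, were at -0.09 and 0.01. RELB and CCL2, at 0.13 and -0.04, had no window to search. In bulk RNA, fewer cells that make an RNA and less of it per cell cannot be told apart. R-Mutant input was not compared here.

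**Figure D3:**
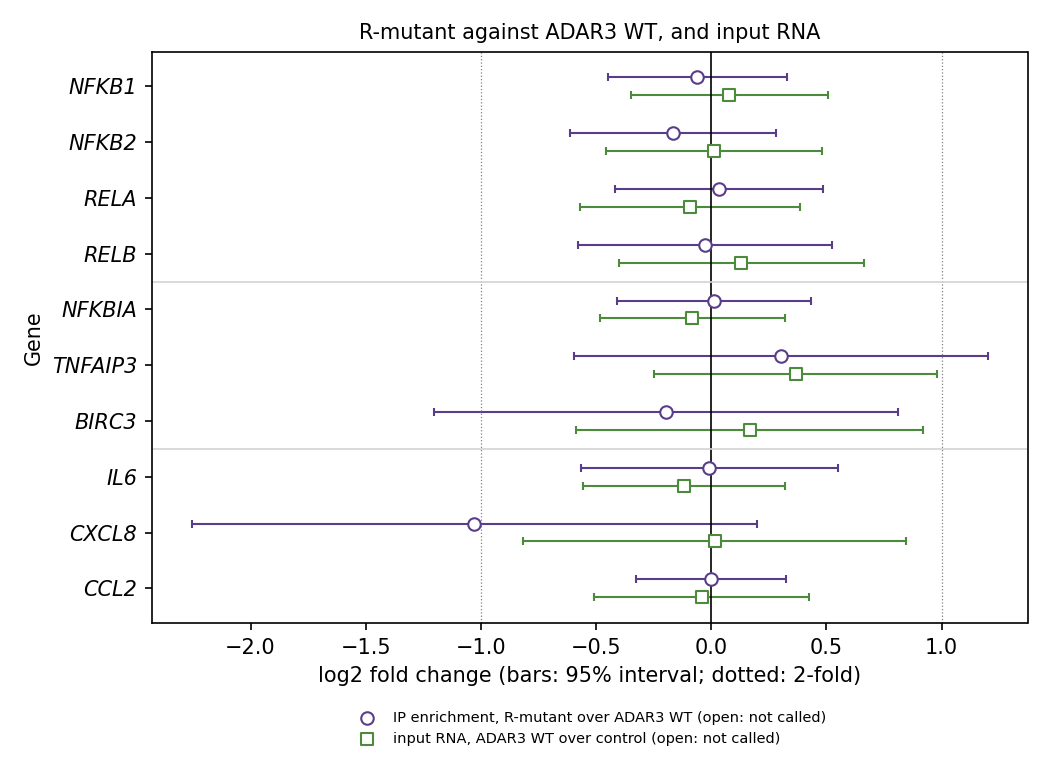
Log2 fold change with 95% interval of the 10 genes (rows) for IP enrichment of R-Mutant over ADAR3 WT (circles) and for input RNA of ADAR3 WT over control (squares). No gene is called in either, and all input intervals lie between the dotted lines at 2-fold.

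Set beside each other, the lower IP enrichment of CCL2 with ADAR3 WT (-1.21) stood against an input fold change of -0.04, that of NFKBIA (-1.02) against -0.08, that of IL6 (-0.99) against -0.12 and that of NFKB2 (-0.75) against 0.01. TNFAIP3, at -1.73 in the IP, was at 0.37 in input. If the IP fold change is read as IP over input, input libraries enter its denominator, and noise that raises a gene's input value would lower its IP value. Whether it did so for these genes was not tested.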

How the data were processed

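The 18 libraries were mapped to 6 groups by their titles. The analysis started from 4 comparison tables that the authors deposited. Reads were processed with STAR 2.7.7a, featureCounts and DESeq2 on GRCh38, per the submitters' processing notes. The annotation and model formula were not given in the sources used here. Per the file headers, the columns are a mean normalized count (a signal), a log2 fold change, the standard error of that log2 value, a test statistic (a score), and a p-value with its adjusted value. In the 3 IP tables the deposited p-value follows from the deposited statistic as the tail of a chi-square distribution on 7 degrees of freedom (relative tolerance 0.01). No label states that the IP fold change is a ratio of IP over input. That reading was taken from the table names and on slopes on the input fold change at an input mean under 10, which were -0.88 and -0.39 in the tables of wild type and mutant against control, and 0.44 in that of mutant against wild type.

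Calls came from a two-sided normal test of each fold change against its standard error with Benjamini-Hochberg adjustment at 0.05 over all genes that have an adjusted p-value in the deposited table. All 10 genes had one in all 4 tables. The procedure was tested on simulated data drawn with the deposited standard errors, so that test cannot show whether those errors are right. The genes, the lists and the test were chosen with earlier results of these data known. The rule for named genes was to give all 10 in every comparison. A wider list of pathway genes and cell type markers was planned by symbol, but 0 genes of the RefSeq table carry an Ensembl ID, so these, the identity of the cell line and the ADAR3 transgene were not checked here. A further 6 columns of the input table hold per-library values under names found in no label and were left out. Scripts ran in Python 3.11.15 with pandas 2.3.3, scipy 1.17.1, numpy 2.4.6 and matplotlib 3.10.9.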

Additional observations from a re-analysis of the deposited data

How the results depend on the processing

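No paired analysis was possible because no usable column could be matched to a labelled library; for the same reason no replicate was left out. The planned counts for the wider pathway list were not made, since no table pairs their symbols with IDs. For ADAR3 WT over control, 2 of the 10 genes were called at an adjusted p under 0.01, 3 at a fold change of at least 2-fold and 1 after Bonferroni, all by construction stricter. For R-Mutant over control the counts were 2, 1 and 1. There NFKBIA, at -0.996, and IL6, at -0.985, fell just short of the 2-fold limit, and NFKB2, at -0.90, was further off. The shares of all genes tested that pass these stricter settings were not computed. The counts therefore do not show whether the listed genes differ from other genes. For R-Mutant over ADAR3 WT, the authors' adjusted p gave 8 genes where the normal test gave 0, and it tests more than the fold change. Centring on the median of all genes turned the sign of 4 values near 0, none of them called, to 0.00983 (IL6) and 0.0169 (CCL2) for R-Mutant over ADAR3 WT and to -0.0183 (NFKB2) and -0.0153 (CXCL8) for input. Of 269 combinations of gene, comparison and setting, 232 kept direction and call, 19 lost a call, 14 gained one and 4 changed sign. These totals do not measure robustness. Direction could change only under centring, and the stricter settings could not add a call. Of the 14 gained calls, 12 came under the authors' adjusted p, which tests more than the fold change. NFKBIA and CCL2 kept their calls in both control comparisons at an adjusted p under 0.01. Depth per library is unknown, and for CXCL8, BIRC3 and TNFAIP3 the standard errors limit what could be seen.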
